A study of Homo sapiens with 4 samples.

Results

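Distal 10q, the long arm of chromosome 10 from 62 Mb to its end on the hs1 human assembly, held 11269 of the 371322 nuclear SAF-A peaks called in 4 CUT&Tag libraries of RPE1 cells. A peak belongs to the segment by the position of its summit alone, so neither its height nor the libraries that share it chose it. The lists contributed 3054 of 101124 peaks (asynchronous replicate 3), 2363 of 76460 (asynchronous replicate 4), 2394 of 78900 (mitotic replicate 3) and 3458 of 114838 (mitotic replicate 4). RPE1 is a human retinal pigment epithelial line immortalised with telomerase, and all libraries came from wild-type cells of this line. Asynchronous cells (2 libraries) were unsynchronised and mitotic cells (2 libraries) were synchronised in mitosis. The way they were synchronised is not stated in the sources used here, and the peak lists gave no separate check of cell state or cell type. Nothing there says that replicates 3 and 4 were separate cultures, so a p-value below reflects the spread between these libraries alone, and that spread may be technical.

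RPE1 cells are known to carry an extra copy of distal 10q, joined to an X chromosome, so that most of the genome is present in 2 copies and this segment in 3. SAF-A, also called hnRNP U, is a nuclear protein that binds both RNA and scaffold DNA and takes part in the organisation of chromatin. In CUT&Tag, antibody-tethered transposase cuts the DNA near the protein, and a stretch present in more copies offers more template. A peak caller such as MACS2 compares the number of fragments stacked at a summit (the pileup) with a local background, which is never set below 1 value for the whole genome, here called the genome background. An extra copy can enter such lists by raising pileups, by raising local backgrounds, or by carrying weak sites past the threshold for a call. Copy number itself was not measured in these libraries.

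The libraries differed in depth. The genome background, which stands for relative depth, was 1.38 (asynchronous replicate 3), 1.17 (asynchronous replicate 4), 1.17 (mitotic replicate 3) and 1.79 fragments (mitotic replicate 4). Pairs of values below give replicate 3 before replicate 4. Each comparison of distal 10q with other sequence was therefore made within a library and then set across the 4. With 4 libraries the smallest exact two-sided sign-flip permutation p is 0.13, and it is 0.33 for the exact two-sided permutation of 2 libraries against 2, so no single value could reach 0.05.

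Distal 10q was denser in SAF-A peaks than the autosomes on average, and more so than the rest of chromosome 10. It had 42.0 and 32.5 peaks per Mb in asynchronous cells and 32.9 and 47.5 in mitotic cells. The other 21 autosomes pooled had 33.9 and 25.7 in asynchronous cells and 26.5 and 38.6 in mitotic cells. The ratio was 1.24, 1.26, 1.24 and 1.23 in that order, a mean of 1.24 ± 0.0141 (SD, n = 4), above 1 in 4 of 4 libraries (exact sign-flip permutation p = 0.13). Against chromosome 10 from 0 to 39 Mb, most of the short arm (10p), the ratio was 1.73 ± 0.0955 (SD, n = 4), and against the long arm from 43 to 62 Mb it was 1.41 ± 0.0411 (SD, n = 4). Each was above 1 in 4 of 4 libraries (exact sign-flip permutation p = 0.13 for each). Covered sequence gave the same picture, with 15.0 and 10.8 kb per Mb in asynchronous cells and 12.0 and 18.6 in mitotic cells, 1.24 ± 0.00838 times the other autosomes (SD, n = 4).

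**Figure D1:**
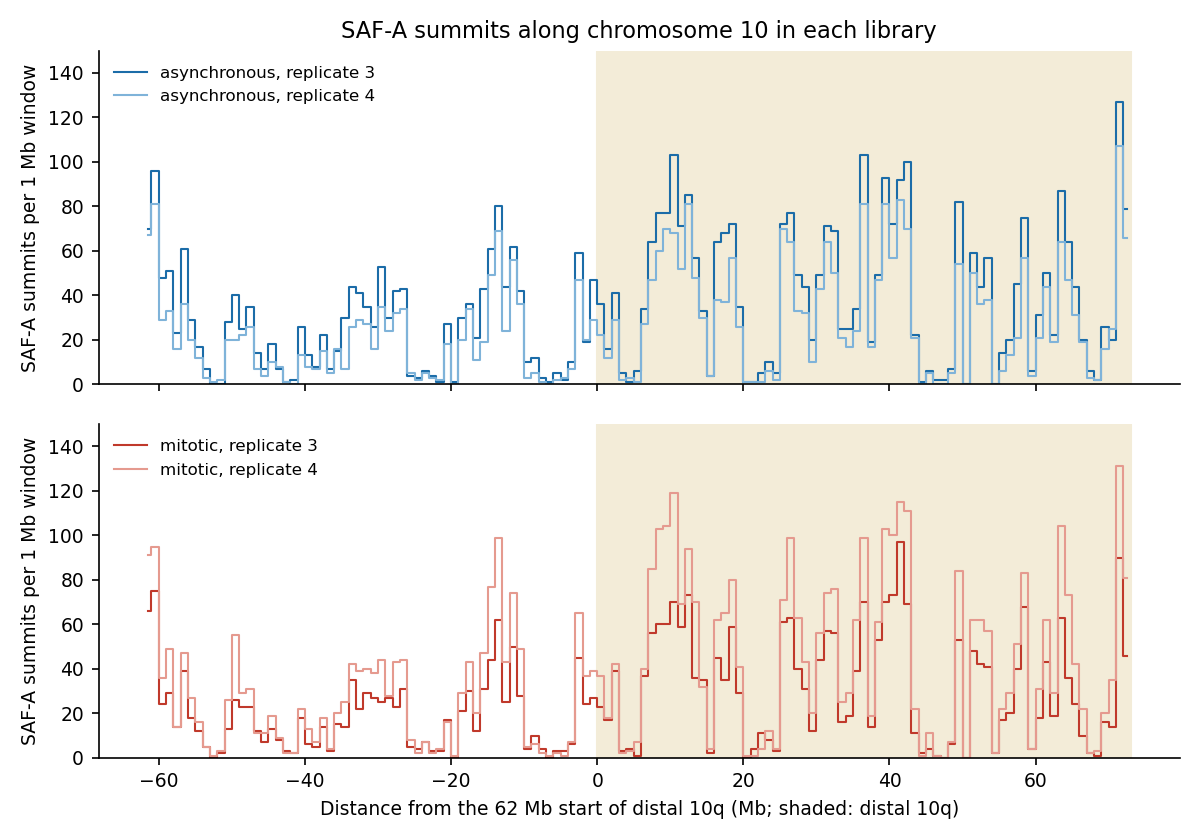
Summits per 1 Mb window along chromosome 10 (y axis) against the distance from the start of distal 10q in Mb (x axis), with asynchronous libraries above and mitotic below and 1 line per library. The shaded segment averages 1.41 times the density of the long arm just before it, and dense and empty windows alternate at the same places in all 4 libraries.

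The density was high but not outside the range of whole autosomes. Ranked by mean peaks per Mb among the 21 other autosomes, distal 10q was sixth of 22 at 38.7 ± 7.32 (SD, n = 4, a spread that includes the depth of the libraries). Chromosome 20 (40.3 ± 8.11) stood just above it and chromosome 11 (38.1 ± 7.63) just below. Within libraries distal 10q had 0.962 ± 0.0256 times the density of chromosome 20, below it in 4 of 4, and 1.02 ± 0.0148 times that of chromosome 11, above it in 4 of 4 (SD, n = 4; exact sign-flip permutation p = 0.13 for each). Chromosomes 17 and 4 marked the ends of the range, at 58.7 and 13.4 peaks per Mb. The short arm of chromosome 10, at 22.4 ± 4.46 (SD, n = 4), was lower than all autosomes except chromosomes 13 and 4. The choice of reference therefore set the size of the excess. The other autosomes were counted over their whole length, whereas distal 10q is part of an arm. Their longest stretch without a summit was 13997 and 23586 kb in asynchronous cells and 27569 and 14892 kb in mitotic cells. How far such stretches shaped the rank was not tested.

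**Figure D2:**
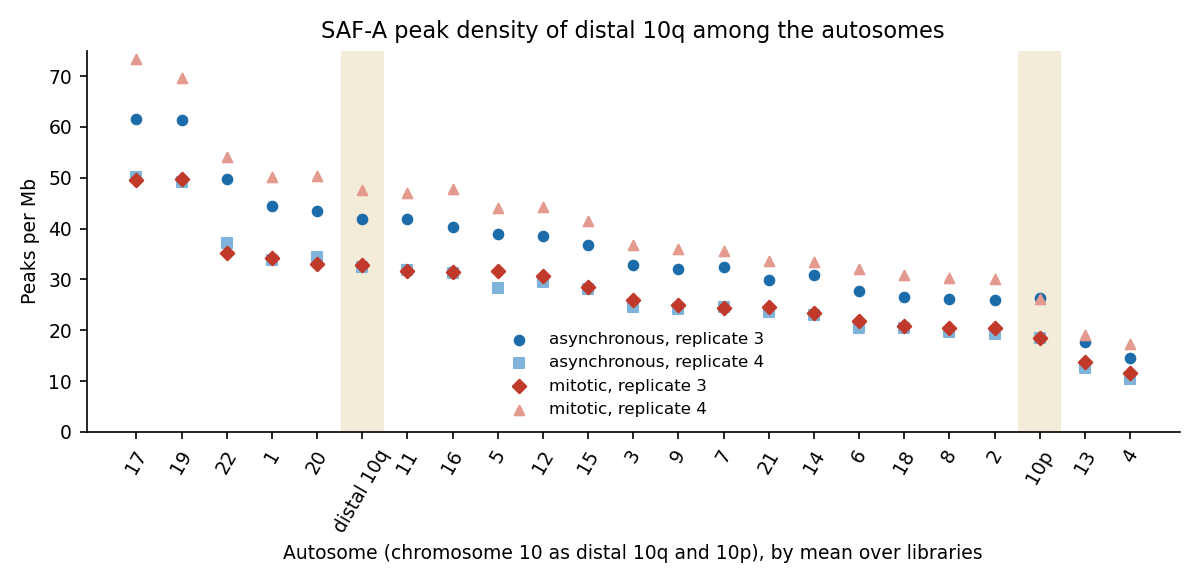
Peaks per Mb (y axis) of each autosome, with chromosome 10 shown as distal 10q and 10p (x axis, ordered by the mean over libraries), 1 point per library. Distal 10q, shaded, lies between chromosomes 20 and 11, and 10p, also shaded, is near the low end.

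The excess was present for weak and strong peaks, and its mean was somewhat larger for the weakest. Each list was divided into 4 equal classes by the authors' q-value over all autosomal peaks. In the weakest class, distal 10q had 1.28 ± 0.0521 times the density of the other autosomes, and in the next classes 1.24 ± 0.0268 and 1.24 ± 0.0235. In the strongest class it had 1.21 ± 0.0206 times (each SD, n = 4, above 1 in 4 of 4 libraries, exact sign-flip permutation p = 0.13). In numbers, the weakest class held 746 and 622 peaks of distal 10q in asynchronous cells and 617 and 905 in mitotic cells. The strongest held 756 and 574 in asynchronous cells and 576 and 835 in mitotic cells. The weakest class had a ratio of 1.21 and 1.34 in asynchronous cells and 1.28 and 1.29 in mitotic cells. The strongest class had a ratio of 1.22 and 1.23 in asynchronous cells and 1.19 and 1.19 in mitotic cells, and the groups did not overlap (exact permutation p = 0.33). From the weakest to the strongest class the ratio thus fell in every library but asynchronous replicate 3.

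Peaks of distal 10q had summits of about the same height as those on the other autosomes. The median summit held 12 and 11 fragments in asynchronous cells and 11 and 14 in mitotic cells, where the other autosomes had 12 and 12, and 11 and 14. The ratio was 1 in 3 libraries and 0.917 in asynchronous replicate 4, with a mean of 0.979 ± 0.0417 (SD, n = 4). Pileups are whole fragments, so medians move in steps of 1 or 0.5 fragments and a small shift could not be seen. The authors' median fold enrichment in the segment was 3.77 and 3.91 in asynchronous cells and 3.92 and 3.61 in mitotic cells, 0.999 ± 0.00496 times that of the other autosomes (SD, n = 4). Peak width was also alike, with medians of 302 and 283 bp in asynchronous cells and 316 and 332 bp in mitotic cells, 1.01 ± 0.0115 times the other autosomes (SD, n = 4). Against 10p, whose median summits held 10, 10, 10 and 12 fragments, distal 10q was taller by a ratio of 1.14 ± 0.050 (SD, n = 4), in 4 of 4 libraries (exact sign-flip permutation p = 0.13).

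The local background of isolated peaks was slightly higher in distal 10q than on the other autosomes. Isolated peaks were those with no other summit of their list within 10 kb, which were 822 and 801 of the asynchronous and 832 and 718 of the mitotic peaks in the segment. Their mean background in distal 10q was 2.20 and 2.05 fragments in asynchronous cells and 1.95 and 2.74 in mitotic cells. The other autosomes had 2.09 and 1.99 in asynchronous cells and 1.91 and 2.63 in mitotic cells. The ratio was 1.04 ± 0.0136 (SD, n = 4), above 1 in 4 of 4 libraries (exact sign-flip permutation p = 0.13). With medians in place of means it was 1.08 ± 0.0233 (SD, n = 4). A smaller part of peaks lay at the genome background itself, within 1%: 17.2% and 12.8% in asynchronous cells and 12.9% and 15.2% in mitotic cells, against 21.1%, 15.0%, 17.5% and 18.4% on the other autosomes. Over all peaks, crowded ones included, the mean background of distal 10q was instead lower than elsewhere, at 0.948 ± 0.0112 times (SD, n = 4), in 4 of 4 libraries (exact sign-flip permutation p = 0.13). Copy number cannot be read from these ratios alone, so the segment is called distal 10q, by its position. The genome background truncates the low end, so these ratios can understate a difference in true background.

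Within chromosome 10, the mean background at isolated peaks was higher in distal 10q than in both reference stretches. Isolated peaks of distal 10q had 1.27 ± 0.0178 times the background of those on 10p and 1.25 ± 0.0673 times that of those between 43 and 62 Mb (SD, n = 4), above 1 in 4 of 4 libraries for each (exact sign-flip permutation p = 0.13). Since crowded windows have higher backgrounds, isolated peaks were also compared by the number of summits in their 1 Mb window. Against 43 to 62 Mb, distal 10q was higher in 16 of 16 combinations of library and class. The reference stretch held 6 to 141 isolated peaks per combination, and without the 4 combinations of the sparser classes that had under 20, the count was 12 of 12. The mean ratio was 1.08 ± 0.0415 for windows with 1 to 10 summits, 1.14 ± 0.0870 for 11 to 20, 1.11 ± 0.0270 for 21 to 40 and 1.26 ± 0.0684 for over 40 (SD, n = 4). Against 10p it was higher in 12 of 16, with means of 0.993 ± 0.0484, 1.04 ± 0.0872, 1.12 ± 0.0452 and 1.14 ± 0.0803 in the same order (SD, n = 4). Against the other autosomes it was higher in 7 of 16, with means of 0.896 ± 0.0184, 1.04 ± 0.0836, 1.04 ± 0.0324 and 0.982 ± 0.0219 (SD, n = 4). Distal 10q thus lay above the rest of its own chromosome arm at every crowding. Against other autosomes of like crowding it had no constant direction, except in the sparsest windows. There its mean was lower in 4 of 4 libraries (exact sign-flip permutation p = 0.13). In those sparsest windows, many isolated peaks of distal 10q sat at the genome background, 85.4% and 53.3% asynchronous and 68.8% and 83.3% mitotic. On the other autosomes these shares were 84.5% and 71.6% asynchronous and 76.6% and 82.6% mitotic. The share was lower in distal 10q in asynchronous replicate 4 and mitotic replicate 3, and slightly higher in the other libraries. The median there was 1.00 times the genome background for both parts in every library, so it could not show a difference. Distal 10q had only 36 to 48 isolated peaks per library in these windows.

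**Figure D3:**
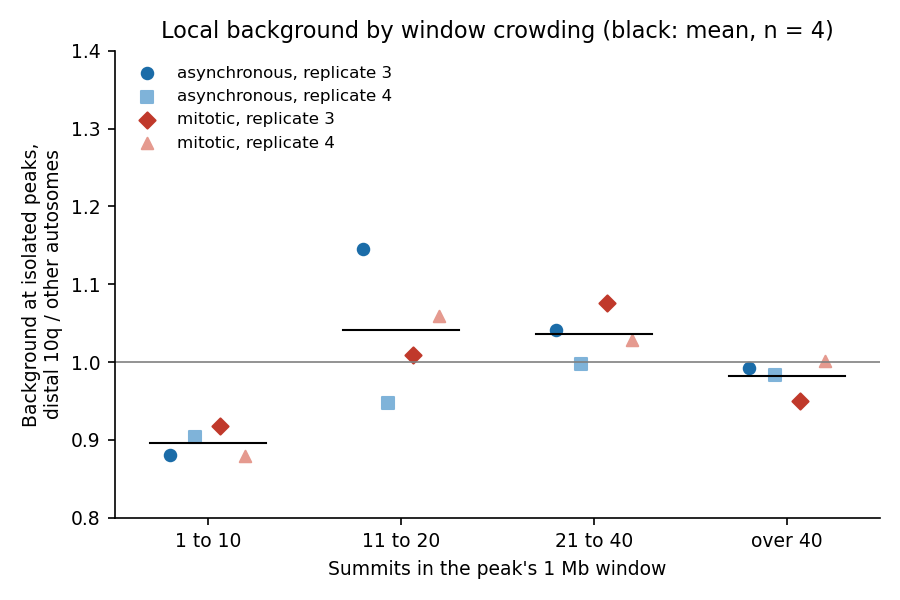
Mean local background at isolated peaks of distal 10q over that on the other autosomes (y axis), by the number of summits in the peak's 1 Mb window (x axis), 1 point per library with the mean as a black line. The points lie between 0.879 and 1.15, on both sides of the line at 1 that marks equal background.

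The background of distal 10q lay within the range of autosomes of like density. Relative to the genome background, isolated peaks stood at 1.64 ± 0.0961 in distal 10q, 1.62 ± 0.0992 on chromosome 20, 1.73 ± 0.162 on chromosome 11 and 1.62 ± 0.105 on chromosome 1 (SD, n = 4). Chromosome 16, with 37.7 peaks per Mb, stood higher at 1.85 ± 0.174, and chromosome 5, with 35.8, lower at 1.45 ± 0.0879 (SD, n = 4). Distal 10q ranked ninth of 22 by this measure. Within libraries it was 1.01 ± 0.0275 times chromosome 20, above it in 2 of 4, and 0.945 ± 0.0371 times chromosome 11, above it in 0 of 4 (SD, n = 4; exact sign-flip permutation p = 0.625 and 0.13).

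At the edge of the segment, density and background moved in opposite directions over 5 Mb on each side. The 5 Mb before 62 Mb held 137 and 106 asynchronous and 105 and 149 mitotic peaks, and the 5 Mb after it held fewer, 99 and 68 asynchronous and 86 and 102 mitotic. At isolated peaks the background was 1.20 ± 0.0233 times the genome background before the edge and 1.34 ± 0.0298 times after it (SD, n = 4). The 4 libraries ranged from 1.18 to 1.22 before and from 1.31 to 1.38 after, and did not overlap. In the adjoining 1 Mb windows, the mean background over all peaks was 1.25, 1.37, 1.29 and 1.27 times the genome background before. It was 1.66, 1.72, 1.57 and 1.53 times after, in the order of asynchronous replicates 3 and 4 and mitotic replicates 3 and 4. At isolated peaks of these windows it was 1.18, 1.20, 1.23 and 1.24 before and 1.31, 1.35, 1.54 and 1.21 after, in the same order. There it fell in mitotic replicate 4 and rose in the other libraries. The last peak before the edge in asynchronous replicate 3, chr10:61911571-61911822, had 7 fragments at its summit, and so did the first after it, chr10:62020800-62020985. In asynchronous replicate 4 the last peak had 10 fragments and the first 7. In mitotic replicate 3 these were 10 and 7, and in mitotic replicate 4 they were 11 and 7. These values around the boundary are a description with no test.

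The effect of copies on calls was gauged by arithmetic on the lists. Each recovered pileup and local background was multiplied by 2/3, with the background kept at or above the genome background, and a peak was kept if its Poisson p still reached the weakest p of its list. In distal 10q this left 2308 and 1937 asynchronous and 1969 and 2815 mitotic peaks, 80.3% ± 3.17 (SD, n = 4). Their density was 0.999 ± 0.0444 times the unscaled density of the other autosomes (SD, n = 4), from 0.935 to 1.04 over the libraries. That sets a scaled list against unscaled ones. With both parts scaled, distal 10q had 31.0 ± 5.61 peaks per Mb and the other autosomes 24.8 ± 4.65 (SD, n = 4, a spread that includes depth). The excess in density thus remained when both were scaled alike. On the other autosomes the same scaling kept 79.7% ± 3.53 (SD, n = 4). Their unscaled lists therefore had 1.26 ± 0.0579 times the peaks, 1.31 ± 0.0510 times the median summit and 1.20 ± 0.0502 times the isolated background of the scaled ones (SD, n = 4). The measured ratios of distal 10q to the other autosomes, 1.24, 0.979 and 1.04, were near the first of these values and under the others. When the pileup alone was scaled, 53.4% ± 1.98 of the peaks of distal 10q and 53.7% ± 2.60 of those on the other autosomes were left (SD, n = 4). The closeness of 1.24 and 1.26 thus depends on scaling the background as well. The lists hold no sites under the threshold, so the reverse step of adding a copy could not be computed. Densities of single autosomes spanned a wider range than this step, and a shift in copies and a shift in the number of sites cannot be told apart from density.

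**Figure D4:**
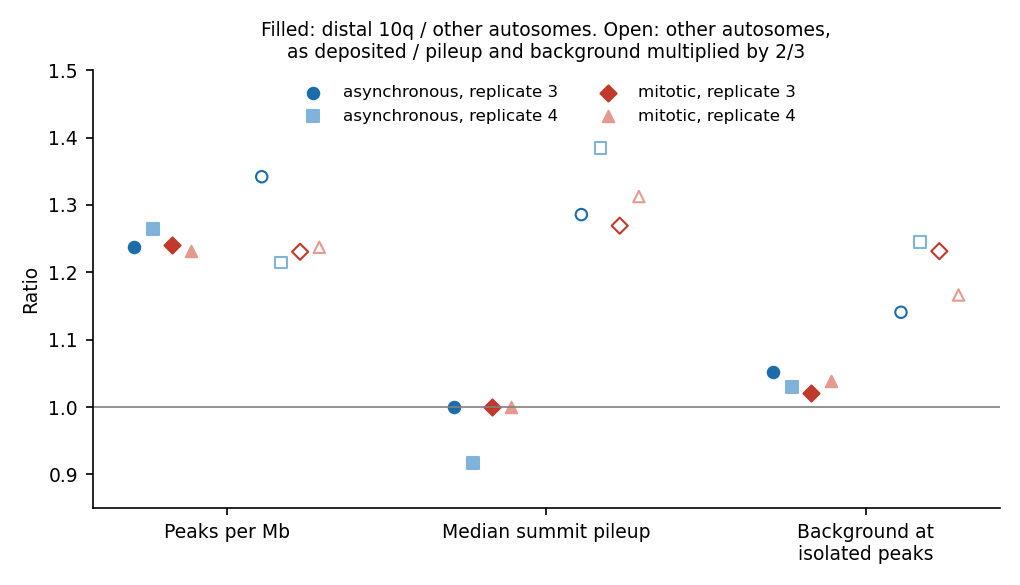
Ratios (y axis) of 3 measures (x axis), 1 point per library. Filled points are distal 10q over the other autosomes, open points the other autosomes as deposited over the same lists with pileup and background multiplied by 2/3. Filled and open points are close for peaks per Mb (means of 1.24 and 1.26) and apart for the median summit (0.979 and 1.31) and the background (1.04 and 1.20).

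Peaks of distal 10q were shared between libraries about as often as those elsewhere. Where peaks of the 4 lists shared at least 1 bp they were merged, which gave 7354 regions in distal 10q. A single library held 71.3% of these, 2 libraries 13.9%, 3 libraries 6.40% and all 4 libraries 8.32% (612 regions, 95% Wilson interval 7.71% to 8.98%, counting error only). On the other autosomes these shares were 71.7%, 13.5%, 6.38% and 8.41%. Sharing rose with the strength of a peak. In the weakest class of a list, between 1.66% and 5.19% of the peaks of distal 10q lay in regions called in all 4 libraries, and in the strongest class between 60.7% and 76.1%. Summits of the 612 shared regions had medians of 25.5 and 22 fragments in asynchronous cells and 20 and 34 in mitotic cells, 1.02 ± 0.0199 times those of the other autosomes (SD, n = 4). The 199 shared regions of 10p were lower, at 20 and 16 asynchronous and 15 and 25 mitotic fragments.

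The segment was far from uniform. Over its 72 full windows of 1 Mb the median was 35.5 and 26.5 asynchronous and 33 and 41.5 mitotic summits. The densest was chr10:133000001-134000000 near the chromosome end, with 127 and 107 asynchronous and 90 and 131 mitotic summits and 29 regions called in all 4 libraries. It was followed by chr10:103000001-104000000 with 92 and 83 asynchronous and 97 and 115 mitotic summits. The next were chr10:72000001-73000000 (103 and 68 against 70 and 119), chr10:98000001-99000000 (103 and 81 against 70 and 99) and chr10:104000001-105000000 (100 and 70 against 69 and 111). The same windows were dense in all 4 libraries. At the other extreme, chr10:112000001-113000000 had 0 summits in every library, and chr10:109000001-110000000 had 2 in asynchronous replicate 3 and 0 in the others. The third sparsest, chr10:82000001-83000000, had 1 summit in each library but mitotic replicate 3, which had 0. The last 1 Mb held 108 and 91 asynchronous and 66 and 119 mitotic peaks, with a background 2.80 ± 0.138 times the genome background (SD, n = 4). The longest stretch without a summit was 1786 and 3231 kb in the asynchronous and 1872 and 2370 kb in the mitotic libraries.

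Successive stretches of 10 Mb from 62 Mb differed in density by a factor of about 2 and did not keep to a common background. The stretches from 72 to 82 Mb and from 92 to 102 Mb were the densest at 52.8 ± 10.1 and 50.6 ± 7.94 peaks per Mb, and that from 82 to 92 Mb the sparsest at 26.4 ± 4.55 (SD, n = 4). Over the 7 full stretches, background at isolated peaks ranged from 1.44 ± 0.0837 times the genome background between 122 and 132 Mb to 1.93 ± 0.251 times between 102 and 112 Mb (SD, n = 4). That last stretch, at 36.2 ± 7.14 peaks per Mb, was not among the densest. The shorter remainder from 132 Mb to the chromosome end exceeded all full stretches in both measures. It had 74.4 ± 15.2 peaks per Mb and an isolated background of 2.99 ± 0.562 times the genome background (SD, n = 4). The means of all 7 full stretches were above the 1.29 ± 0.0627 of 10p and the 1.20 of the 5 Mb before the segment.

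The tallest summit of distal 10q by a wide margin was chr10:133397192-133397958, in the densest window. It reached 999 and 821 fragments in asynchronous cells and 630 and 1123 in mitotic cells, and ranked first in each. Divided by the library's median over all regions called in 4 libraries, it stood at 39.5 ± 0.611 in asynchronous cells and 32.8 ± 1.79 in mitotic cells (SD, n = 2). The asynchronous libraries were higher and the groups did not overlap, but the difference of -0.27 log2 units (SE 0.12, limma adjusted p = 0.475) did not pass. The second, chr10:75699261-75700524, had 170 and 141 asynchronous and 107 and 195 mitotic fragments, 6.76 ± 0.0606 and 5.63 ± 0.395 times the median (SD, n = 2). The first summit stood several times above the second in every library. The third, chr10:111802289-111803328, had 131 and 97 against 99 and 132 fragments. The fourth, chr10:104805004-104805984, had 156 and 92 against 79 and 136.

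The fifth of the shared regions, chr10:134755477-134758034, ended at the last position covered by any peak of the chromosome and was the widest of the 10 named, at 2558 bp. It had 98 and 124 asynchronous and 96 and 150 mitotic fragments. A second tall region of the densest window, chr10:133486262-133486802, had 155 and 110 asynchronous and 85 and 117 mitotic fragments. The difference, mitotic minus asynchronous, was -0.55 log2 units (SE 0.17) and did not pass (limma adjusted p = 0.175). The last 4 of the 10 were chr10:113964891-113965872, chr10:72637390-72638669, chr10:103387047-103388077 and chr10:73131151-73132026, with 57 to 142 fragments at their summits over the libraries. Among the 10, relative heights of the asynchronous and mitotic libraries did not overlap in 5, all higher in asynchronous cells, where 37.3% of all shared regions did not overlap and 20.2% were higher in asynchronous cells. None of the 10 passed by limma with Benjamini-Hochberg adjustment over all shared regions.

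Distal 10q took a like share of peaks in both cell states. It held 3.10% and 3.17% of autosomal peaks in asynchronous cells and 3.11% and 3.09% in mitotic cells, a difference of -0.0314 percentage points with overlapping groups (exact permutation p = 0.667). The density ratio to the other autosomes was 1.25 ± 0.0186 in asynchronous cells and 1.24 ± 0.00661 in mitotic cells, and the background ratio at isolated peaks was 1.04 ± 0.0162 and 1.03 ± 0.0130 (SD, n = 2; exact permutation p = 0.667 for each). Against 43 to 62 Mb the background ratio was 1.27 and 1.32 in asynchronous cells and 1.26 and 1.16 in mitotic cells, a difference of -0.0844, with no overlap of the groups (exact permutation p = 0.33). Against 10p the density ratio was 1.59 and 1.75 in asynchronous cells and 1.77 and 1.81 in mitotic cells, and the groups did not overlap (exact permutation p = 0.33).

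Window by window, no change between cell states passed the test in distal 10q. Covered sequence per window was compared by limma over all 2932 windows of the genome, of which 0% were called at an adjusted p under 0.05. Among the 71 tested windows of the segment, 0 passed. An unadjusted p under 0.05 was found in 5 of 71, where the genome had 6.72%. Of these, 4 were higher in mitotic cells (genome 4.09%) and 1 lower (genome 2.63%). The median log2 difference, mitotic minus asynchronous, was 0.01 over the segment's windows and 0.02 over all windows. The smallest p was that of chr10:97000001-98000000, where peaks covered 360 and 267 bp per Mb of covered sequence in asynchronous cells and 485 and 448 in mitotic cells (0.57 log2 units, SE 0.18, limma adjusted p = 0.516). Its neighbours in rank were chr10:118000001-119000000 (195 and 135 against 287 and 238 bp) and the adjoining chr10:117000001-118000000 (158 and 90.5 against 202 and 189 bp). In the other direction stood chr10:105000001-106000000, with 273 and 353 bp in asynchronous cells and 223 and 228 in mitotic cells (-0.45 log2 units, SE 0.21, limma adjusted p = 0.72). It was followed by chr10:87000001-88000000 (765 and 956 against 785 and 660 bp) and the densest window, chr10:133000001-134000000 (1324 and 1451 against 1229 and 1211 bp). These log2 values were taken after a pseudocount of 10 was added to each covered length.

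One shared region of distal 10q differed in height between the states. At chr10:80595727-80596273 the summit held 9 and 14 fragments in asynchronous cells and 25 and 48 in mitotic cells. Relative to the median over shared regions it stood at 0.513 ± 0.217 in asynchronous cells and 1.35 ± 0.145 in mitotic cells (SD, n = 2), so that the groups did not overlap. It was higher in mitotic cells by 1.46 log2 units (SE 0.30, limma adjusted p = 0.0117). This was 1 call among 612 regions of the segment, where 0.0590% of all 20334 shared regions were called. The call did not hold when heights were scaled to the genome background (adjusted p = 0.0718), without a trend in the variance prior (0.298), or without asynchronous replicate 3 (0.316), mitotic replicate 3 (0.0956) or mitotic replicate 4 (0.118). The SE drew mainly on regions other than this one, since the prior had 219 degrees of freedom and the libraries 2.

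Over the other shared regions the states were close. The 2 states differed by under 0.5 log2 units in 89.1% of the 612 regions, against 89.4% of all shared regions. The median difference was -0.04 log2 units in distal 10q and -0.02 over all. An unadjusted p under 0.05 was found for 56 of 612 (9.15%), where the genome had 8.90%. Of these, 24 were higher (genome 4.08%) and 32 lower in mitotic cells (genome 4.82%). Relative heights did not overlap between the states in 236 regions (38.6%), where the genome had 37.3%. Of these, 101 were higher in mitotic (genome 17.1%) and 135 higher in asynchronous cells (genome 20.2%).

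**Figure D5:**
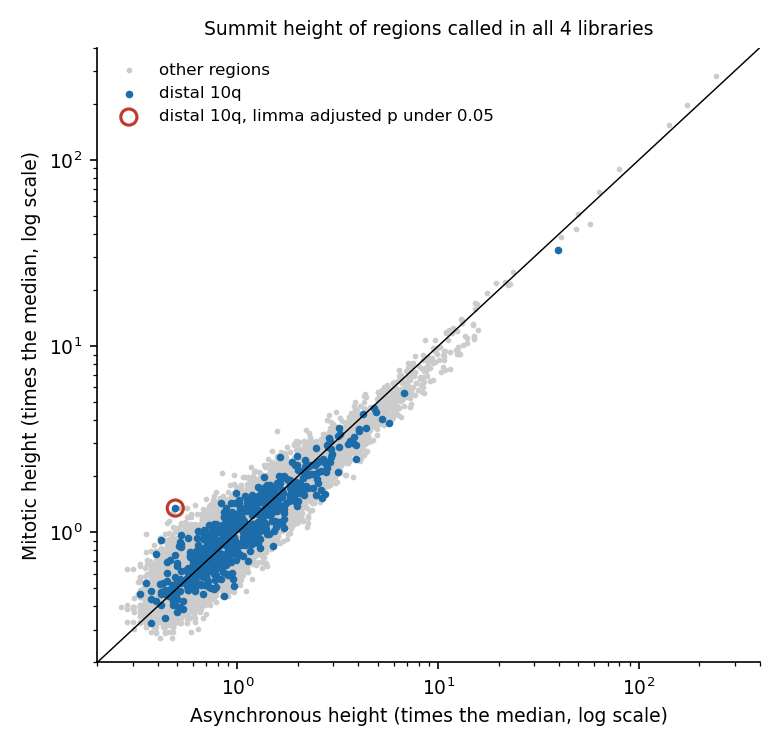
Summit height of each region called in all 4 libraries in mitotic (y axis) against asynchronous cells (x axis), each the geometric mean of 2 libraries in multiples of the library's median, on log scales. The 612 regions of distal 10q (blue) follow the line of equality among the other regions (grey). The circled region is the single one of them that passed the test, and the blue point near 40 is chr10:133397192-133397958.

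Regions found in both libraries of a state and in neither of the other were few and of ordinary height. Distal 10q had 136 asynchronous-only (1.85% of its regions) and 200 mitotic-only regions (2.72%), where the other autosomes had 1.66% and 2.82%. They are part of the 1025 regions (13.9%) called in exactly 2 libraries, where the other autosomes had 13.5%. The rest of these paired 1 library of each state. Whether pairs of the same state were favoured was not tested, so these calls alone do not make a region specific to a state. Median summits were 12 and 11 fragments in the asynchronous-only and 11 and 14 in the mitotic-only regions, the same as over all peaks of the segment. The strongest mitotic-only regions were chr10:103527760-103528219 (27 and 55 fragments) and chr10:125919571-125919928 (27 and 45). They were followed by chr10:68965968-68966252 (29 and 36), chr10:73208118-73208550 (26 and 34) and chr10:74745806-74746551 (26 and 31). The strongest asynchronous-only regions were chr10:87566083-87566966 (19 and 20), chr10:101229815-101230087 (19 and 22) and chr10:133341822-133342182 (21 and 18). The next were chr10:133099255-133099512 (24 and 17) and chr10:74605710-74606329 (17 and 17). Mitotic replicate 4 was the deepest of the 4 libraries. With lists of equal length, distal 10q had 133 asynchronous-only (2.28%) and 141 mitotic-only regions (2.42%), so that the asynchronous count was nearly as before and the mitotic count was lower. The other autosomes then had 1.98% and 2.71%.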

How the data were processed

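The build was hs1, and the tools MACS2, Bowtie2, fastp and bedtools, per the submitters' processing notes. The sources used here do not give versions, parameters or a control library. The authors deposited 1 peak list per library. The fold enrichment (a ratio), the -log10 p-value and q-value and the score (10 times the -log10 q) are the authors' deposited values for each peak, used only within a list. The lists kept -log10 q above 1.

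Summit pileup and local background were solved from the deposited fold = (pileup + 1) / (background + 1) and the Poisson tail p. All pileups under 200 came out whole within 0.05. Of the 103, 74, 50 and 144 higher ones, 96.1%, 97.3%, 88.0% and 95.1% did. The solver and the fits were tested on simulated data. Chromosome ends were the last peak end of any list, 134758034 for chromosome 10. Peak counts carry counting error, and deeper libraries have less.

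Ratios were tested by exact sign-flip permutation over libraries, states by exact permutation of 2 against 2. Windows and shared regions were fitted with limma 3.58.1 (trended prior, Benjamini-Hochberg over all features, windows with peaks in at least 2 libraries). Named regions were chosen by rank: the 10 tallest shared regions, the 5 strongest of each state, every region that passed, the 5 densest and 3 sparsest windows, and the 3 windows with the smallest p in each direction. The segment, measures and lists were chosen with earlier results of these data known. Planned gene lists were not used, since no hs1 gene annotation was used here, and no gene or sequence is given. Alternatives were other segment starts and references, a stricter threshold, equal list lengths, a common peak width of 183 bp, reciprocal overlap, other pseudocounts and windows, and each library left out.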

Additional observations from a re-analysis of the deposited data

Results flagged for a closer look

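The median fold enrichment of distal 10q relative to the other autosomes was above 1 in both asynchronous libraries and below 1 in both mitotic libraries. The mitotic minus asynchronous difference was -0.00818 (exact permutation p = 0.33, the smallest the design allows). The background at isolated peaks of distal 10q relative to chromosome 20 likewise lay above 1 in both asynchronous libraries (1.05 and 1.02) and below 1 in both mitotic libraries (0.986 and 0.989). That difference was -0.0430 (exact permutation p = 0.33).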

How the results depend on the processing

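The density ratio to other autosomes (1.24) stayed above 1 under all 15 alternatives, of which 1 (length counted over windows with a summit, 1.23) was chosen after seeing the data. It was 1.26 and 1.30 with the segment starting at 65 and 70 Mb, 1.22 without the last 1 Mb, 1.20 at a -log10 q of at least 5, 1.73 with 10p, 1.29 with the median autosome and 1.41 with 43 to 62 Mb as reference. Leaving out libraries gave 1.24 to 1.25. The isolated background ratio (1.04) was 1.27 against 10p, 1.07 at a -log10 q of at least 5 and 1.08 as a median, a summary chosen after seeing the data, and turned to 0.948 over all peaks. It was 1.03 to 1.04 with a library left out. The summit height ratio (0.979) turned to 1.14 against 10p and 1.02 at a -log10 q of at least 5, and was 0.972 to 1 with a library left out. The share called in all 4 libraries (8.32%) was 5.27% at a reciprocal overlap of 50%, 23.6% at a -log10 q of at least 5 and 10.03% with equal list lengths. On the other autosomes these were 5.23%, 22.0% and 10.2%. Scaling the pileup alone left 53.4% of peaks, against 80.3%.

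The difference in share between states (-0.0314 points) ran from -0.0647 to 0.0018 with a library left out. With the replicate number as a block it was again -0.0314 (exact permutation p = 1), and the window fit had 0 calls and the shared region fit 1 call in distal 10q. Deviations of same-numbered libraries correlated at -0.000287 over windows and -0.0493 over shared regions, so the numbers were not treated as pairs. Shared region calls in distal 10q (1) fell to 0 with scaling to the genome background and without a variance trend, and ran from 0 to 2 with a library left out. The window fit had 0 calls in distal 10q under all its alternatives. The cause of these changes was not tested. Where a background sits at the genome background, a lower value cannot be seen, which limits sparse windows most.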
